A study of Iris tectorum with 6 samples.

Results

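Ribosomal proteins of plastids and mitochondria were followed in leaf RNA of Iris tectorum, a garden iris, through 82 unigenes out of 111791 that had reads in at least 1 library. A unigene is an assembled transcript. The members were the unigenes whose best protein hit was described as a 30S or 50S ribosomal protein, without the tag chloroplast or plastid in brackets, and whose hit species belonged to 1 of 8 named monocot genera. Of all 110 descriptions naming a 30S or 50S ribosomal protein, 82 met this rule. The hits came from Elaeis for 22 members, Asparagus for 20, Phoenix for 18, Ananas for 12, Musa for 7, Phalaenopsis for 2 and Dendrobium for 1, and no hit was to Iris itself. Of the 82 members, 56 had the word chloroplastic in the description and 26 did not, and of these 26 the description said mitochondrial for 13 and gave no location for the other 13.

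Both groups of plants were kept in a glasshouse in swine wastewater with a mean flooding depth of 12.3 cm (error 0.8 cm), as the growth protocol states. In the plant alone group the iris was the only culture named, and in the co-culture group the water also held Dictyosphaerium sp., a green microalga that forms colonies. Leaves were sampled in both groups and no genotype, cultivar or plant age was given. The libraries analysed were plant alone 2 and 3 and co-culture 1, 2 and 3, while plant alone 1 was not analysed here. The labels did not say that samples of a group came from separate plants or tanks, so p-values measured only the spread between these samples.

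Plant cells hold ribosomes of bacterial type in plastids and in mitochondria, besides the ribosomes of the cytosol. Plastid ribosomes translate the proteins encoded in the plastid genome, among them core subunits of the photosystems and the large subunit of Rubisco, the enzyme that fixes carbon dioxide. Most proteins of these ribosomes are encoded in the nucleus and imported, and descriptions tagged as plastid-encoded were left out here. The roles given for single proteins were taken from bacteria, where most of them were worked out, except where a plant is named.

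Library totals lay between 18616931 and 22975621 expected fragments, and a count of 3, the most that a count of 0 allows, equalled 0.124 to 0.172 CPM (counts brought to one common library size). Leaf identity was read from chlorophyll a-b binding proteins (the light-harvesting antenna), Rubisco small chain and Rubisco activase, whose sum lay between 2997 and 5009 CPM for plant alone and between 1934 and 18810 CPM for co-culture, with none of the 3 marker groups at 0 in a library. The highest and the lowest library in these markers were both co-culture. Co-culture 2 had 12720 CPM of antenna transcripts and co-culture 3 had 1675 CPM, against 7233 CPM in co-culture 1 and 3698 and 2334 CPM in plant alone 2 and 3. Unigenes with hits in green algal genera, 367 in all with 237 of them read in every library, summed to 2727 and 3542 CPM without the alga and to between 1959 and 2252 CPM with it. Results that 1 library turned or moved by over 1.5 times are therefore given without that library too. RNA of the whole leaf was measured, so fewer cells of a type and less RNA per cell cannot be told apart.

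The 56 chloroplastic members carried 31 protein names, 16 members in the small subunit and 40 in the large one, and formed 35 assembly clusters or single unigenes. Contigs of one cluster carry one cluster number from the assembly, and how alike their sequences are was not analysed here. The chloroplastic members lay between 267 and 1714 bases long. Of these members 54 had a ribosomal entry in the orthology annotation, but a chloroplast term stood in the gene ontology of 4, with no component term for 18. The location of most members therefore rested on the description of the hit alone. Of the 13 mitochondrial members, 5 had a mitochondrion term and none a chloroplast term. Of the 13 members with no location in the description, 2 had a chloroplast term and none a mitochondrion term. Reads in every library were found for 74 of the 82 members, and 79 passed the filter on low counts, 54 chloroplastic and 25 others. The members that did not pass were a contig of L27 (CL12478.Contig3_zju) and 2 unigenes of S20 (CL4486.Contig3_zju and Unigene44038_zju), named here after their values were seen.

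In FPKM (fragments per length of transcript and depth of library), which allows levels of genes to be set side by side, the chloroplastic members ranged from 0.088 to 76.7 as the mean of the 5 libraries, with a median of 26.5. The highest levels belonged to L5 (Unigene40615_zju), at 76.7 FPKM, which binds the 5S ribosomal RNA. S10 (Unigene23756_zju), in the head of the small subunit, stood at 69.7 FPKM and L21 (Unigene9624_zju) at 69.1 FPKM. S17 (Unigene41376_zju), an early binder of the 16S ribosomal RNA, stood at 68.8 FPKM and S13 (Unigene55885_zju), which touches the transfer RNA, at 65.0 FPKM. Without chloroplastic, the level was lower, with a median of 5.33 FPKM and a highest value of 50.6 FPKM for mitochondrial HLP (CL11023.Contig2_zju). The next were mitochondrial S31 (CL7411.Contig1_zju) at 25.9 FPKM, 2 contigs of L17 at 24.5 FPKM (CL2024.Contig2_zju) and 13.7 FPKM (CL2024.Contig1_zju), and L18 (Unigene11307_zju) at 13.3 FPKM. Groups are compared below in CPM scaled by the trimmed mean of M-values (TMM), with values in the order plant alone 2, plant alone 3, co-culture 1, co-culture 2 and co-culture 3, and errors are SDs with n = 2 for plant alone and n = 3 for co-culture.

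The chloroplastic members stood high in co-culture 1 and most of all in co-culture 2, and low in co-culture 3. Their summed level was 1383, 964, 1726, 2689 and 741 CPM in the 5 libraries. Both the highest and the lowest library were thus co-culture, and the groups overlapped. The plant alone mean was 1173 ± 296 CPM and the co-culture mean 1719 ± 974 CPM, a ratio of 1.47 with a spread in co-culture larger than the difference. Without co-culture 2 the ratio was 1.05, without co-culture 3 it was 1.88, and without plant alone 2 or 3 it was 1.78 or 1.24.

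**Figure D1:**
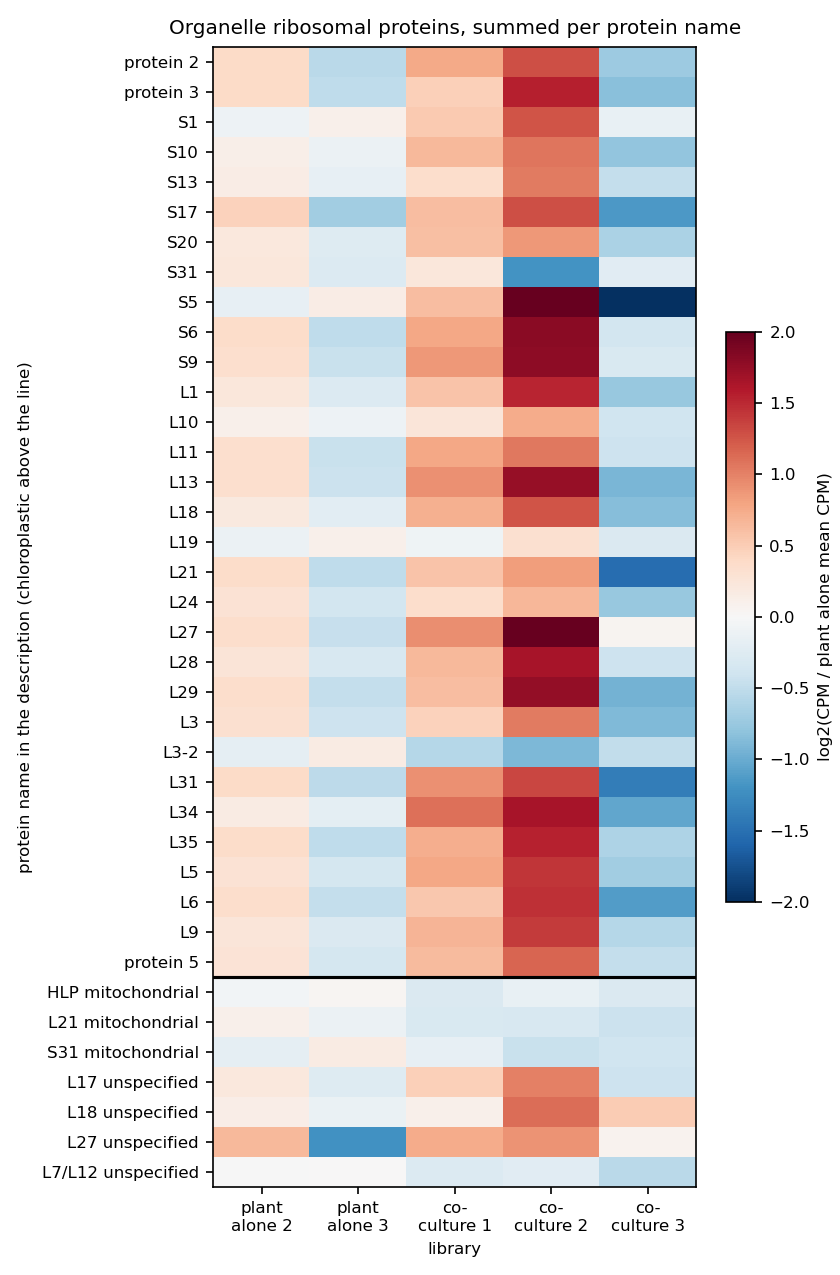
Level of each ribosomal protein name (rows, member contigs summed) in each of the 5 libraries (columns), as log2 of CPM over the plant alone mean, red for higher and blue for lower, with colours capped at 2 in either direction. Above the line are the 31 chloroplastic names, of which 29 were highest in co-culture 2 and 25 lowest in co-culture 3, and below it the 7 other names.

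No member passed edgeR's quasi-likelihood test at an adjusted p under 0.05, where the smallest adjusted p of a member was 0.628, and 0.0% of the 69984 tested unigenes passed. No member was at an unadjusted p under 0.05 either, while 7.2% of all tested unigenes were, 2.75% higher and 4.45% lower in co-culture. DESeq2 called no member at an adjusted p under 0.05, beside 0.899% of all tested unigenes called higher and 0.977% called lower in co-culture, and put 3 members at an unadjusted p under 0.05 (contigs of L27, L3-2 and mitochondrial L21, described below). Of the 54 tested chloroplastic members, 45 had a positive fitted log2 fold change of co-culture over plant alone and 9 a negative one, where 50.1% of all tested unigenes were positive. Their median was 0.59 (quartiles 0.27 and 0.84), against 0.001 over all tested unigenes, but it was 0.12 without co-culture 2, 0.33 without plant alone 3, and 0.92 and 0.94 without co-culture 3 and plant alone 2. All co-culture libraries lay above both plant alone libraries for 2 of the 54 members and below them for 4, where the shares over all tested unigenes were 12.8% and 17.2%.

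Many chloroplastic members shared one order of the libraries, called the common order below. Co-culture 2 was the highest and co-culture 3 the lowest library for 29 of the 54 tested chloroplastic members, 53.7%, against 6.93% of all tested unigenes, 2.46% of the cytosolic 40S and 6.25% of the cytosolic 60S proteins. Of the 37 tested antenna unigenes 13 had this order, 35.1%. Relative to the plant alone mean on the log2(CPM + 0.5) scale, the median chloroplastic member deviated by 0.25 and -0.25 in plant alone 2 and 3, by 0.59 in co-culture 1, by 1.08 in co-culture 2 and by -0.50 in co-culture 3. The antenna transcripts had the same order of the 5 libraries as the summed chloroplastic members, and so had Rubisco small chain, at 1127, 527, 1472, 4046 and 136 CPM, and Rubisco activase, at 184, 136, 315, 2042 and 122.8 CPM. Their part in the result was not tested. In FPKM, which was not TMM-scaled, co-culture 2 remained the highest library for 29 of 31 chloroplastic names, and co-culture 3 was the lowest for 19 instead of 25.

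**Figure D2:**
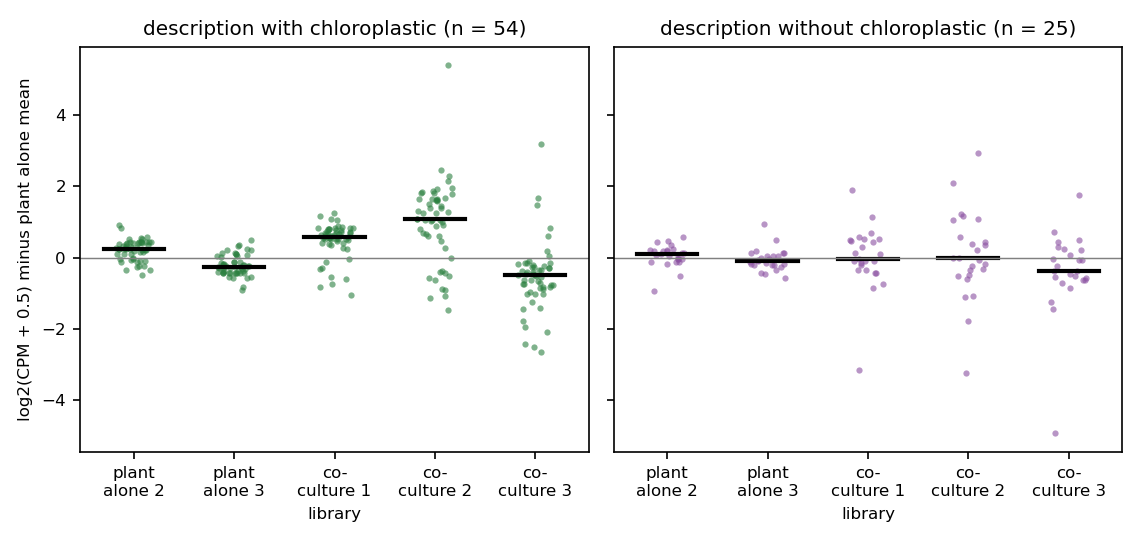
Deviation of each tested member from its plant alone mean (y axis, log2(CPM + 0.5)) in each library (x axis), for the 54 members with chloroplastic in the description (left) and the 25 without (right). Points are members and bars are medians, which run from -0.50 in co-culture 3 to 1.08 in co-culture 2 on the left and from -0.37 to 0.10 on the right.

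Summed per protein name, the ratio of co-culture to plant alone means was above 1 for 29 of the 31 chloroplastic names, with a median of 1.58. Without co-culture 2 the median ratio was 1.08, and 11 names instead of 2 were below 1. Leaving it out moved the ratio by over 1.5 times for 11 names, which were S5, S6, S9, plastid-specific 30S protein 3, L1, L6, L13, L27, L28, L29 and L35. Without plant alone 2 the ratio moved that far for S17 alone, from 1.48 to 2.39, and leaving out any of the other 3 libraries moved none that far. Without co-culture 3 the median ratio was 2.07.

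In the small subunit, 13 of 14 tested chloroplastic members had a positive log2 fold change, with a median of 0.57. S9, a protein of the head whose tail reaches the transfer RNA, stood at 37.9, 22.1, 54.5, 104 and 24.3 CPM. Co-culture 1 and 2 were above both plant alone libraries and co-culture 3 lay between them, and the ratio of the means, 2.03, was 1.31 without co-culture 2. S6, which binds beside S18 on the platform, had 29.4, 16, 38.9, 79.0 and 17.7 CPM with the same overlap, and a ratio of 1.99 that was 1.25 without co-culture 2. S5, which takes part in the accuracy of decoding, ranged most in relative terms, from 0.495 CPM in co-culture 3 to 19.9 CPM in co-culture 2, while the plant alone libraries had 4.34 and 5.33 CPM and co-culture 1 had 7.395 CPM. Its ratio of 1.92 turned to 0.816 without co-culture 2. These S5 values are those of 1 contig (CL13619.Contig1_zju), with a log2 fold change of 0.94. Over all contigs of its cluster, members or not, the log2 fold change was 0.14.

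Among the small-subunit proteins with the highest levels, S10 stood at 52.6, 44.7, 76.0, 102 and 28.3 CPM. S13 was at 55.5, 44.7, 63.9, 103 and 36.1 CPM. S17 was at 67.1, 30.1, 74.4, 119 and 21.9 CPM. In each of the 3, co-culture 1 and 2 were above and co-culture 3 below both plant alone libraries. Their fitted log2 fold changes were 0.50, 0.43 and 0.56, with adjusted p-values by edgeR of 0.838 (S10), 0.838 (S13) and 0.871 (S17). Without co-culture 2 these log2 fold changes were 0.11, 0.019 and 0.002, and that of S17 was 1.25 without plant alone 2. S1, which holds messenger RNA to the small subunit, had a ratio of 1.58 between the summed group means, and S20, an early binder in assembly, one of 1.33. The plastid-specific 30S proteins 2 and 3, which have no counterpart in E. coli, had ratios of 1.58 and 1.63, with co-culture 2 highest and co-culture 3 lowest in both. Without co-culture 2 these ratios were 1.15 and 0.975. Protein 2 carried a polyadenylate-binding entry, not a ribosomal one, in the orthology annotation.

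In the large subunit, 32 of 40 tested chloroplastic members had a positive log2 fold change, with a median of 0.62. L27, whose tail reaches the peptidyl transferase centre where peptide bonds form, had the largest ratio of any of the 31 chloroplastic names. Its 2 contigs summed to 31.9, 18.2, 47.9, 106 and 26.1 CPM, with co-culture 3 between the plant alone libraries, and the ratio of 2.39 was 1.48 without co-culture 2. The contig CL5362.Contig1_zju, at 7.58, 5.10, 10.1, 24.3 and 11.4 CPM, was 1 of the 2 chloroplastic members with every co-culture library above plant alone. Its log2 fold change was 1.27 (edgeR adjusted p = 0.628, DESeq2 adjusted p = 0.379), and its unadjusted p passed 0.05 by DESeq2 (0.043) but not by edgeR (0.067). The other contig of L27 had almost the same log2 fold change, 1.25, with overlapping groups.

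L5 stood at 76.1, 48.7, 106.8, 169 and 38.6 CPM, above plant alone in co-culture 1 and 2 and below it in co-culture 3. Its log2 fold change was 0.75 (edgeR adjusted p = 0.786), with 0.24 when co-culture 2 was left out and 1.15 when co-culture 3 was. L21 (Unigene9624_zju) stood at 96.4, 52.4, 110.2, 133 and 25.8 CPM, with co-culture 3 at the bottom, and its log2 fold change of 0.27 (edgeR adjusted p = 0.942) turned to -0.12 without co-culture 2 and to -0.09 without plant alone 3. L13, which joins early in assembly, had 56.8, 33.3, 84.5, 149.9 and 24.0 CPM over its contigs, and a ratio of 1.91 that was 1.20 without co-culture 2. L1, the stalk through which spent transfer RNA leaves, had 65.5, 46.3, 82.7, 161 and 33.2 CPM and a ratio of 1.65 that was 1.04 without co-culture 2. L31, which bridges the subunits, had 57.2, 30.5, 82.9, 111 and 16.7 CPM and a ratio of 1.60 that was 1.14 without co-culture 2.

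The other large-subunit names, apart from L3-2 described below, were also highest in co-culture 2 and, except for L11, lowest in co-culture 3. L34 had a ratio of 1.92 and L28 one of 1.82, L29, near the exit of the peptide tunnel, one of 1.81, and L35 one of 1.74. Without co-culture 2 these were 1.31 for L34, 1.16 for L28, 1.02 for L29 and 1.16 for L35. L9 had a ratio of 1.64 and L6 one of 1.56, which were 1.14 and 0.957 without co-culture 2. L11, in the region where translation factors act, had 1.52, and L18, which binds 5S ribosomal RNA with L5, had 1.53. Plastid-specific 50S protein 5 had 1.503, L3, an early assembly protein near the catalytic centre, 1.33, and L24, another early assembly protein, 1.15. Without co-culture 2, L11, L18 and protein 5 stayed above 1, at 1.23, 1.10 and 1.14, while L3 and L24 were at 0.964 and 0.934. Of L10, which anchors the L7/L12 stalk, the unigenes differed. Unigene5879_zju stood at 53.0, 35.5, 62.0, 104.9 and 27.7 CPM and followed the common order, while Unigene3222_zju stayed between 39.3 and 46.9 CPM in all 5 libraries.

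A second L3 protein, L3-2, had the lowest ratio of the 31 chloroplastic names and was the only 1 of them with separate groups. Its 3 contigs summed to 44.5, 56.4, 33.8, 26.9 and 36.0 CPM, so every co-culture library lay below both plant alone libraries and co-culture 2 was the lowest. The ratio of the means was 0.639, and it stayed between 0.571 and 0.725 when any 1 library was left out. CL12758.Contig3_zju, at 18.2, 25.1, 14.4, 11.3 and 11.5 CPM, had a log2 fold change of -0.81 and the smallest unadjusted edgeR p of all members, 0.051 (edgeR adjusted p = 0.628, DESeq2 adjusted p = 0.356). CL12758.Contig2_zju, at 16.2, 16.7, 9.71, 7.57 and 13.7 CPM, also had separate groups, and a log2 fold change of -0.67 (edgeR adjusted p = 0.661). In FPKM the groups of this contig overlapped, with 11.04 in co-culture 3 against 10.81 in plant alone 3. Summed over the cluster, the log2 fold change was -0.64, with an unadjusted edgeR p of 0.051, where 9.43% of all cluster sums were under 0.05. By contrast the L3 unigene (Unigene5195_zju) stood at 67.9, 40.9, 75.3, 111 and 29.7 CPM, in the common order, and the difference between L3 and L3-2 was not tested.

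L19, at the interface of the subunits, was split in the same way between clusters. The cluster CL3551, with 2 members, summed to 20.2, 15.1, 23.9, 41.7 and 8.25 CPM, in the common order. The cluster CL7354, described as partial L19 with 6 members, summed to 32.3, 45.9, 29.5, 29.1 and 38.4 CPM, with co-culture 1 and 2 below plant alone and co-culture 3 between. S31 was the other chloroplastic name below 0 on the log2 scale. Its 2 member contigs (cluster CL11821) summed to 11.7, 8.2, 11.7, 4.35 and 8.54 CPM, with co-culture 2 lowest, and the ratio of 0.822 was 1.02 without co-culture 2. Another, more abundant contig of that cluster (CL11821.Contig3_zju) had a Vitis hit and was therefore no member, and at 29.5, 23.2, 49.2, 83.6 and 16.6 CPM it followed the common order.

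The mitochondrial members did not share the order of the chloroplastic ones and stood slightly lower in co-culture. Their summed level was 129, 133, 109, 110.1 and 103 CPM, so that all 3 co-culture libraries lay below both plant alone libraries. The means were 131 ± 3.05 CPM and 107 ± 3.61 CPM, a ratio of 0.819 that stayed between 0.805 and 0.834 when any 1 library was left out. The direction of single members was 4 positive and 9 negative, with a median log2 fold change of -0.22, and 4 of the 13 had every co-culture library below plant alone, where 17.2% of all tested unigenes did. In FPKM, 3 of the 13 did. Other mitochondrial ribosomal proteins, 15 unigenes named 39S or the like, had a ratio of the summed CPM of 0.752, and cytosolic 40S and 60S proteins had 0.891 and 0.880. Without plant alone 3 the first was 0.843, while the cytosolic ratios turned to 1.03 and 1.02.

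HLP, related to L14 and named after HUELLENLOS of Arabidopsis, where loss of the founding gene disturbs ovule growth, was the most abundant mitochondrial protein. CL11023.Contig2_zju stood at 53.9, 57.5, 43.4, 47.5 and 47.2 CPM, separate between groups, with 55.7 ± 2.55 against 46.0 ± 2.26 CPM. Its log2 fold change was -0.28 (edgeR adjusted p = 0.78). In FPKM, where it averaged 55.4 ± 0.601 and 47.4 ± 7.29, the groups overlapped. S31 (CL7411.Contig1_zju) stood at 15.8, 18.7, 14.9, 13.3 and 12.5 CPM, again with all co-culture libraries lower, and a log2 fold change of -0.35 (edgeR adjusted p = 0.767). Summed over its 3 contigs, mitochondrial S31 stood at 22.5, 28.5, 22.7, 18.7 and 19.4 CPM, and the groups overlapped.

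L21 of mitochondria, with 7 members in total, summed to 42.3, 36.2, 31.9, 31.5 and 29.2 CPM, a ratio of 0.786 with separate groups. CL7124.Contig4_zju, the most abundant contig, stood at 19.4, 16.7, 14.1, 8.31 and 11.3 CPM (log2 fold change -0.68, edgeR adjusted p = 0.645). CL7124.Contig2_zju, a contig of 229 bases, stood at 5.75, 3.90, 0.0891, 0.0495 and 1.44 CPM. It had the lowest log2 fold change of all members, -3.17 (edgeR adjusted p = 0.628, DESeq2 adjusted p = 0.373), and the values in co-culture 1 and 2 were below 3 counts. Leaving out co-culture 3 gave -5.98 on that scale, and leaving out co-culture 2 gave -2.56. In the other direction, CL7124.Contig5_zju stood at 0.523, 0.287, 0, 6.33 and 2.56 CPM and CL7124.Contig6_zju at 0.157, 1.95, 4.23, 4.89 and 0.990 CPM, with log2 fold changes of 2.85 and 1.68 and overlapping groups (edgeR adjusted p = 0.731 and 0.744). Without co-culture 2 the first was 1.73, and the second went to 0.79 when plant alone 2 was left out and to 4.39 when plant alone 3 was.

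Members whose description gave no location lay between the other classes. Their summed level of 93.0, 74.9, 99.6, 142 and 69.0 CPM had the library order of the chloroplastic members, with a ratio of 1.23 that was 1.004 without co-culture 2. L17, beside the exit of the peptide tunnel, made up most of it with 55.7, 40.3, 66.7, 96.1 and 35.9 CPM. CL2024.Contig2_zju stood at 25.6, 15.7, 29.1, 45.5 and 27.2 CPM, with every co-culture library above plant alone (log2 fold change 0.72, edgeR adjusted p = 0.661). CL2024.Contig1_zju of the same cluster was at 17.2, 12.8, 20.1, 35.2 and 0 CPM, which allows up to 0.124 CPM in co-culture 3, and its log2 fold change of 0.30 became -0.59 without co-culture 2. L18 (Unigene11307_zju) stood at 12.1, 10.03, 11.9, 23.9 and 15.8 CPM, with co-culture 1 between the plant alone libraries (log2 fold change 0.64, edgeR adjusted p = 0.701).

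L7/L12, the stalk protein that recruits translation factors, stood apart from L17. Its 4 members summed to 24.2, 24.3, 20.0, 20.7 and 16.6 CPM, with all co-culture libraries below plant alone and a ratio of 0.788. Unigene7542_zju was at 10.8, 13.1, 8.64, 8.16 and 7.75 CPM, separate between groups (log2 fold change -0.55, edgeR adjusted p = 0.671). CL10309.Contig1_zju was at 7.43, 5.56, 4.68, 4.05 and 4.33 CPM, also separate (log2 fold change -0.58, edgeR adjusted p = 0.716). Chloroplastic L12 unigenes with hits outside the named genera, picked after their values were seen, differed among themselves. With a Beta hit, CL11718.Contig3_zju was at 59.7, 26.4, 69.5, 143 and 16.04 CPM, in the common order. CL11718.Contig2_zju of the same cluster was highest in co-culture 2 but lowest in plant alone 3. With a Gossypium hit, CL6304.Contig1_zju was at 9.255, 10.78, 8.242, 6.774 and 7.01 CPM, every co-culture library below plant alone (log2 fold change -0.448). The stalk protein was thus present under both kinds of description, and its chloroplastic unigenes did not share one direction.

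Contigs of one cluster did not always share a direction. Of 17 clusters with at least 2 tested members, 7 held members in both directions. Of the 17, 3 had log2 fold changes that spanned more than 2, those of L13, of partial L19 and of mitochondrial L21. In the L13 cluster, where all 3 contigs were positive, CL8580.Contig3_zju stood at 1.10, 0, 0, 37.3 and 7.67 CPM, with almost all of its reads in co-culture 2 and 3 and a log2 fold change of 4.74 (edgeR adjusted p = 0.688; 2.89 without co-culture 2 and 11.3 without plant alone 2), while the other 2 contigs had 0.68 and 0.67. In the L19 cluster CL7354, Contig2 (CL7354.Contig2_zju) stood at 2.51, 3.04, 3.34, 4.50 and 9.86 CPM, every co-culture library above plant alone (log2 fold change 1.09, edgeR adjusted p = 0.67). Contig5 of the same cluster (CL7354.Contig5_zju) stood at 9.67, 15.8, 8.06, 7.81 and 2.85 CPM and Contig1 (CL7354.Contig1_zju) at 12.8, 14.1, 6.24, 10.2 and 10.1 CPM, all co-culture libraries below plant alone (log2 fold changes -1.03 and -0.61, edgeR adjusted p = 0.662 and 0.684). Summed over its contigs, the cluster was at -0.26 on that scale.

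**Figure D3:**
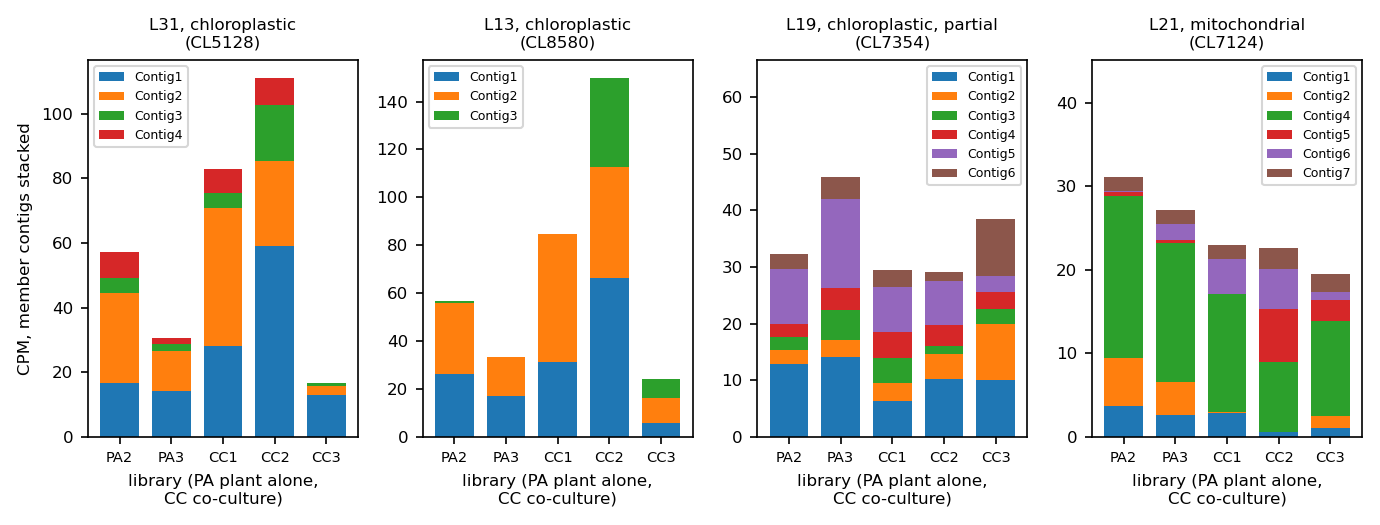
Member contigs of 4 clusters stacked by library (x axis, PA plant alone and CC co-culture, y axis CPM). The L31 and L13 sums are highest in co-culture 2 and lowest in co-culture 3, while the L19 cluster lies between 29.1 and 45.9 CPM and the L21 mitochondrial cluster between 19.5 and 31.1 CPM with their contigs in changing shares.

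The L31 cluster shows the same shift of shares within the common order. CL5128.Contig1_zju stood at 16.5, 14.1, 28.1, 59.1 and 12.8 CPM (log2 fold change 1.12, edgeR adjusted p = 0.682, and 0.43 without co-culture 2), and CL5128.Contig2_zju at 28.1, 12.6, 42.7, 26.4 and 2.89 CPM, so the first was the larger contig in plant alone 3 and in co-culture 2 and 3, and the second in plant alone 2 and co-culture 1. This split did not follow the groups. Whether reads shared by contigs of a cluster were divided differently between libraries was not tested. All contigs of a cluster, members or not, were summed before a further fit. In it, 31 of 34 chloroplastic entries and 3 of 12 others had a positive log2 fold change, with medians of 0.64 and -0.15. None was at an unadjusted edgeR p under 0.05, where 9.43% of all entries were. These directions were not always those of the members. The log2 ratio of CL11821 (S31) was -0.28 over its members and 0.69 over the cluster, and that of CL12478 (L27) 0.61 and -0.24.

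Other genes of organelle translation, listed by description among hits in the same genera, were read beside the members. The 35 tested translation factors of plastids and mitochondria had 25 positive and 10 negative log2 fold changes, with a median of 0.41, and release factor APG3 (CL14428.Contig1_zju), which ends translation in plastids, stood at 0.366, 0.229, 1.07, 2.08 and 1.16 CPM. Of the 34 tested ribosome assembly factors, 24 were positive, with a median of 0.60, and 12 had every co-culture library above plant alone, 12 of 34 where 12.8% of all tested unigenes did. DEAD-box RNA helicase 3 (CL14897.Contig1_zju), needed for plastid ribosome assembly in Arabidopsis, stood at 128, 97.7, 169.9, 337 and 165 CPM, above plant alone in every co-culture library, with a log2 fold change of 0.99 (edgeR adjusted p = 0.628, DESeq2 adjusted p = 0.435). Of the 72 tested transfer RNA ligases of organelles, 47 were positive, with a median of 0.29, and DESeq2 called 1 of the 72 higher, where 0.899% of all tested unigenes were called higher, a threonine ligase contig (CL3279.Contig5_zju), at 0 in both plant alone libraries and at 3.74, 1.68 and 1.53 CPM in co-culture (DESeq2 adjusted p = 0.0012, edgeR adjusted p = 0.628).

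**Figure D4:**
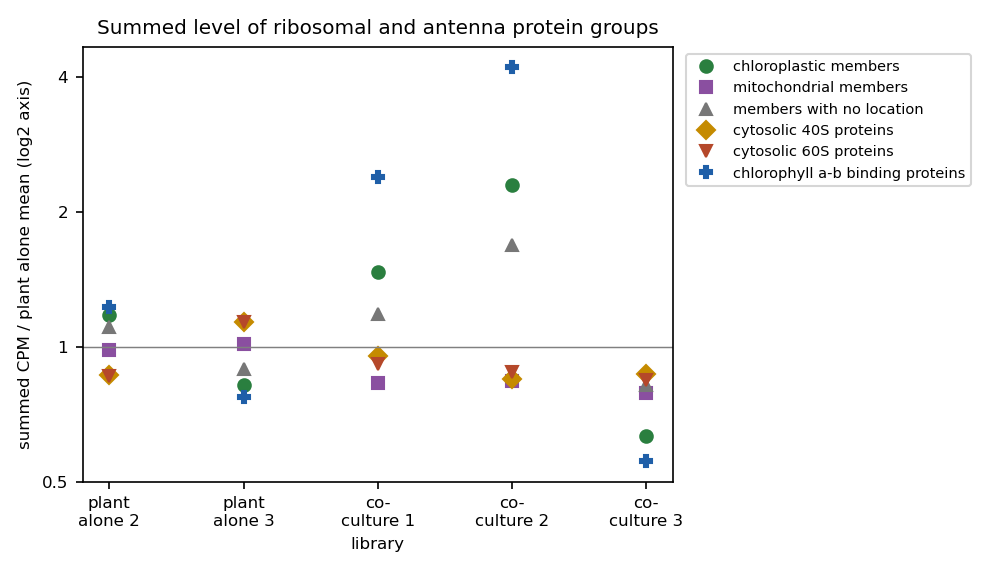
Summed CPM of 6 groups of genes in each library, divided by the plant alone mean (y axis on a log2 scale, x axis the 5 libraries). Chloroplastic members (ratio of means 1.47) and antenna proteins (2.39) are highest in co-culture 2 and lowest in co-culture 3, and mitochondrial members (0.819) and cytosolic 40S (0.891) and 60S (0.880) proteins stay near 1. Without co-culture 2 the ratio is 1.05 for chloroplastic members and 1.48 for antenna proteins.

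The cytosolic ribosomal proteins were more often negative than positive. Of 122 tested 40S unigenes 44 were positive and 78 negative, with a median of -0.10, and DESeq2 called 2 higher, a contig each of S7 and S19. Of 224 tested 60S unigenes 77 were positive and 147 negative, with a median of -0.13, and DESeq2 called 2 lower, L38 (Unigene13096_zju) and L28 (Unigene10639_zju). Over all tested unigenes, DESeq2 called 0.899% higher and 0.977% lower. Whether 2 of 122 and 2 of 224 differ from these shares was not tested. The 15 other mitochondrial ribosomal unigenes gave 4 positive and 11 negative, with a median of -0.15. Among them 39S protein L45 (CL8590.Contig2_zju) stood at 53.4, 64.1, 41.9, 21.8 and 16.4 CPM, every co-culture library below plant alone (log2 fold change -1.14, edgeR adjusted p = 0.628).

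Ribosomal descriptions outside the rule gave a check on other organisms in the samples. The 5 with hits in algae or microbes summed to 11.1 and 45.1 CPM in the plant alone libraries and to between 0.593 and 1.53 CPM in co-culture, lower in all 3 of these. The 10 ribosomal unigenes tagged chloroplast or plastid, most of them with algal hits, had 4 tested, of which 1 was positive, with a median log2 fold change of -2.48. DESeq2 called 2 of the 4 lower, S5 with a Karenia hit (Unigene39826_zju, edgeR log2 fold change -4.06, DESeq2 adjusted p = 0.0034) and L12 with a Trachydiscus hit (Unigene35411_zju, -5.44 and 0.024). Over all tested unigenes it called 0.977% lower. The Trachydiscus-hit unigene stood at 6.22, 0.975, 0.0891, 0.148 and 0 CPM. Plant alone 2 was thus far above plant alone 3, and the co-culture values were at 3 counts or fewer. The positive one, the L23 unigene Unigene55146_zju, with a hit in the flowering plant Endiandra, stood at 8.21, 10.8, 17.2, 15.1 and 14.2 CPM, above plant alone in every co-culture library. Another L23 unigene with an Endiandra hit (Unigene55145_zju) stood at 18.4, 4.36, 11.5, 0 and 6.76 CPM, with overlapping groups. Of the 23 descriptions with other plant hits, 15 were tested, with a median log2 fold change of 0.35.

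The authors' deposited table compared pooled groups, and its plant alone reads included some not analysed here (59625013 against 37498927 in the libraries used). In the authors' deposited table, 46 of 56 chloroplastic members had a positive log2 ratio (co-culture against plant alone), with a median of 0.54, where 59835 of 109978 unigenes with a ratio were positive with a median of 0.12. The authors' deposited table also gave 11 positive and 15 negative ratios for the members without chloroplastic, with a median of -0.14.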

How the data were processed

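Leaf RNA was sequenced on a BGISEQ-500, per the labels' protocols. The submitters' processing notes name Bowtie2, RSEM and DESeq2, with no version, and no source used here names the assembler. Per the file headers, the authors deposited for each library the RSEM expected count of every unigene with reads and its FPKM. The authors' deposited comparison held pooled expected counts, a log2 ratio, a p-value and a q-value. Its name points to DEGseq while the notes name DESeq2, so its tool is uncertain. The table of resistance genes was not used.

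From these files, a missing unigene was set to 0 and expected counts were rounded. Unigenes passing edgeR's filterByExpr (69984) were tested with edgeR 4.0.16 (quasi-likelihood, TMM) in R 4.3.3, Benjamini-Hochberg adjusted over all, with a threshold of 0.05. DESeq2 1.42.0 was an alternative; it gave no adjusted p for 4200 unigenes. limma 3.58.1 gave the voom fit with quality weights. Other alternatives were RLE and upper-quartile scaling, no filter and a stricter one (1 CPM in 2 libraries), unrounded counts, cluster sums, the replicate number as a block, other genera, leaving out each library and, added after seeing the data, the authors' FPKM. Medians, sums and library orders are descriptions with no test. CPM are TMM-scaled.

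Replicate numbers were not stated to pair samples. Fits were checked on simulated counts with 200 changed unigenes, at the spread of these libraries. Of changes of 4-fold and 16-fold, edgeR found 0% and 0%, and DESeq2 24% and 87% with 480 false calls. At a much smaller simulated spread edgeR found 91% and 100%. Intervals and the limit of 3 counts cover counting error only.

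Members named were the 5 with the highest mean FPKM in each class (with or without chloroplastic), the 4 with the smallest edgeR p in each direction per class, and any called member, and at most 2 of each other list. Protein sums and exceptions are given besides. The members, lists and tests were chosen with earlier results of these data known.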

Additional observations from a re-analysis of the deposited data

How the results depend on the processing

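Each of the 24 named members was refitted under at most 13 alternatives, and 21 kept their direction in all of them. The exceptions were L17 (CL2024.Contig1_zju), at -1.55 with voom quality weights, -2.98 with the replicate block and from -0.59 (without co-culture 2) to 0.89 with a library left out, mitochondrial L21 (CL7124.Contig5_zju), at -0.15 with voom, and chloroplastic L21 (Unigene9624_zju), at -0.28 with the block and from -0.12 (without co-culture 2; -0.09 without plant alone 3) to 0.77 with a library left out. The cause was not tested. No member was called by edgeR in any of these fits, and with the small power seen on simulated counts this says little about differences that exist.

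The number of members at an unadjusted p under 0.05 was 0 in edgeR, 3 in DESeq2, 2 with voom, 2 with the block and 1 with hits in any genus, and ranged from 0 to 9 when a library was left out. The chloroplastic median of 0.59 was 0.12 to 0.94 with a library left out. The median without chloroplastic, -0.14, was -0.13 to 0.25 and turned positive without plant alone 2 (0.25) and without co-culture 3 (0.028). The median of all tested unigenes was 0.001 and moved to -0.046 with voom, 0.085 with no filter, -0.095 with the block and 0.060 with upper-quartile scaling, and from -0.029 to 0.182 with a library left out. With the replicate block, for the pairs numbered 2 and 3, the chloroplastic median was 0.22 and the other -0.23. Deviations of same-numbered samples correlated at 0.037 and 0.069 across unigenes, which does not show a pairing.

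Depth limits the smallest members, such as the unigenes that did not pass the count filter, whose values rest on low counts. For the short contig of mitochondrial L21 this holds in co-culture 1 and 2, at 1.98 and 1.0 counts. That contig had 109.8 and 67.91 counts in plant alone 2 and 3 and 35.36 in co-culture 3.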
